A study of Rattus norvegicus with 102 samples.

Results

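The genes described here carry glutamate across membranes or return it to neurons as glutamine, and were followed through the CA1, CA3 and dentate gyrus (DG) subfields of the rat hippocampus in relation to age and to water maze performance. They were Slc17a7, Slc17a6 and Slc17a8 (the vesicular glutamate carriers VGLUT1, VGLUT2 and VGLUT3), Slc1a2, Slc1a3 and Slc1a1 (the plasma membrane carriers GLT-1, GLAST and EAAC1) and Glul (glutamine synthetase). They were chosen by symbol, with earlier results of these data known. All 7 were found once in each deposited table, among 26284 genes of the Illumina and WT tables and 26341 genes of the Ion Proton table. All 7 passed the filter on low values. The rats were male Fischer 344 rats of 3 groups, namely 10 young rats aged 5 to 6 months, 12 aged-unimpaired (AU) rats and 12 aged-impaired (AI) rats, the aged rats being 17 to 22 months old. The labels name no transgene and no drug treatment, and aged rats were classed by how well they searched for a hidden water maze platform from memory. One hippocampus of each rat gave 1 piece per subfield, so each table held 3 libraries from each of 34 rats, and neither CA2 nor the subiculum was isolated. Values below are normalized counts of the Illumina table unless the Ion Proton or WT table is named, errors are SD, and differences are log2 differences of (normalized count + 1) from limma, with p-values adjusted by Benjamini-Hochberg over all genes tested.

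At an excitatory synapse, a vesicular carrier loads glutamate into synaptic vesicles, driven by the proton gradient across the vesicle membrane. Released glutamate is cleared by sodium-dependent carriers, of which GLT-1 and GLAST are mainly astrocytic and EAAC1 is mainly neuronal. Astrocytes convert it to glutamine with glutamine synthetase, and neurons take glutamine back and turn it into glutamate with glutaminase. In the hippocampus VGLUT1 is the main vesicular carrier of principal cells. VGLUT2 is the usual carrier of thalamic and other subcortical glutamate neurons, and VGLUT3 is found in a subset of interneurons and in some serotonergic and cholinergic neurons. The tissue was sampled in bulk, so fewer cells of a type and less RNA per cell cannot be told apart.

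Libraries held a median of 10.8 M reads assigned to genes in Illumina (3.25 to 42.8), 9.74 M in Ion Proton (4.47 to 21.4) and 8.07 M in WT (3.54 to 20.6). For each library, log2 levels of the CA1, CA3 and DG markers were standardized per gene and averaged per list. In 13 libraries, from 10 rats, these averages lay nearer to another subfield than to the labelled one in both poly-A tables. These were 1 CA1, 8 CA3 and 4 DG libraries, of which 2 came from young, 7 from AU and 4 from AI rats. Rat numbers fell into a series below 9000 (18 rats, 5 young and 13 aged) and a series from 9000 up (16 rats, 5 young and 11 aged). The study used rats from a pair of sites with these same numbers of young and aged rats, but no label ties a rat to a site, so the rats are called only by number series here. Of the 13 libraries, 12 came from rats numbered from 9000 up. For called differences that involve CA3, values without those libraries or within each series are therefore given beside those for all rats.

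The 250 bases before the start of the vesicular carrier genes are shown because most of the called differences between subfields fell on these genes. Sequences are from RefSeq on build GRCr8, which is not the rn5 build that the authors aligned to, and run 5′ to 3′ on the strand of the gene. Of the 7 genes, 6 had a promoter in the list, Slc1a1 being the one without. Slc17a7 lies at chr1:104785955-104786204 on the plus strand, Slc17a6 at chr1:110348197-110348446 on the plus strand and Slc17a8 at chr7:25935411-25935660 on the minus strand. Capitals mark GGGCGG, the core of the GC box, on either strand.
Slc17a7: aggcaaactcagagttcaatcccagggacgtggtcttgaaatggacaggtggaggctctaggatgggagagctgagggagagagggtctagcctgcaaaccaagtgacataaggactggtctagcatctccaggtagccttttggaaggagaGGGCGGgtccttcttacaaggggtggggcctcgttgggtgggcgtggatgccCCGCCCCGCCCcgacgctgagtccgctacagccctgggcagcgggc
Slc17a6: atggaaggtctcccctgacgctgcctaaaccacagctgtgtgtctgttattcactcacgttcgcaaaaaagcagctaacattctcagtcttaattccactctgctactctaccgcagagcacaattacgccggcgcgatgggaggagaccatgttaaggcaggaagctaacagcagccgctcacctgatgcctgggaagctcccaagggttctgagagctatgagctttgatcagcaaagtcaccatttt
Slc17a8: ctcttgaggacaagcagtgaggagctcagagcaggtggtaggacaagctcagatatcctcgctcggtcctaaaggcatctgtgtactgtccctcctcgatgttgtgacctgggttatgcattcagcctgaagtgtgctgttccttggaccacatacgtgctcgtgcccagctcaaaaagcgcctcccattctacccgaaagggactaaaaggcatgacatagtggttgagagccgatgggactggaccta
The Slc17a7 window held 3 matches, 2 of which overlapped by 1 base, and the Slc17a6 and Slc17a8 windows held 0. The motif was present in 30.5% of all 33469 windows of the same length. GC content was 61.2% for Slc17a7, 50.8% for Slc17a6 and 53.2% for Slc17a8, against a median of 51.2% over all windows.

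Across all rats, the called differences between subfields were in vesicular carriers and glutamine synthetase. Slc17a7 was lower and Slc17a6 higher in CA1 than in each of the other subfields, and Glul was lower in DG than in each of the other subfields. A gene was called when its adjusted p was under 0.05 with the same direction in Illumina and Ion Proton. For CA1 against CA3, 2 of the 7 genes were called, where 14.4% of all genes tested were. For CA1 against DG, 4 of 7 were called, against 26.9% of all genes, and for CA3 against DG 1 of 7, against 28.5%.

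For Slc17a7 the lowest, median and highest of the 34 libraries were 14242, 21844 and 27721 for CA1, 16680.5, 27762 and 38665 for CA3 and 19918, 32033 and 39058 for DG. CA1 libraries were the lowest as a group and DG libraries the highest, with overlapping ranges. Slc17a7 was lower in CA1 than in CA3 by a difference of -0.29 (SE 0.07, adjusted p = 0.000242) and lower in CA1 in 28 of 34 rats. The Ion Proton difference was -0.39 and the WT difference -0.30. The gene was lower in CA1 in 18 of 18 rats below 9000 (-0.52), and the call was lost in rats from 9000 up, with 10 of 16 lower and a difference of -0.03 (95% confidence interval -0.20 to 0.14). Against DG the difference was -0.52 (SE 0.07, adjusted p = 6.09e-11, Ion Proton -0.53), with CA1 lower in 32 of 34 rats. CA3 and DG differed by -0.24 in Illumina (adjusted p = 0.0013) but this was not past the threshold in Ion Proton (-0.14, adjusted p = 0.233). In rats from 9000 up alone it was called, at -0.52 (adjusted p = 4.15e-06, Ion Proton -0.30, adjusted p = 0.0297), while rats below 9000 gave 0.02.

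Slc17a6 ran the other way. Its lowest, median and highest values were 107, 366 and 1103 for CA1, 74.8, 152 and 479.8 for CA3 and 39.0, 118 and 448 for DG. CA1 held the highest libraries, though every subfield had libraries in the range of the others. CA1 exceeded CA3 by 1.01 (SE 0.17, adjusted p = 1e-06, Ion Proton 0.95) in 27 of 34 rats. The difference was 1.54 in rats below 9000 and 0.41 in rats from 9000 up, where it was not called (adjusted p = 0.332, Ion Proton 0.30, adjusted p = 0.601). CA1 exceeded DG by 1.38 (SE 0.17, adjusted p = 5.05e-11, Ion Proton 1.27) in 32 of 34 rats. For CA3 against DG the difference of 0.37 missed the threshold (95% confidence interval 0.03 to 0.71, adjusted p = 0.0591). With the replicate block on the rat it passed in Illumina (adjusted p = 0.0409) but not in Ion Proton (adjusted p = 0.146), so it was not called there either. It was called in rats from 9000 up alone, at 0.81 (adjusted p = 0.0122, Ion Proton 0.79, adjusted p = 0.0251), while rats below 9000 gave -0.02.

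Slc17a8 had few reads, between 10 and 258 per CA1 library in Illumina. Its values were 23.9, 55.3 and 148 for CA1, 15.0, 86.2 and 203 for CA3 and 20.2, 91.5 and 128 for DG. CA3 libraries had the widest spread, reaching below and above those of both other subfields. The gene was lower in CA1 than in DG by -0.61 (SE 0.16, adjusted p = 0.00105, Ion Proton -0.83) in 29 of 34 rats. CA1 against CA3 gave -0.45 (adjusted p = 0.0244) in Illumina and -0.52 (adjusted p = 0.121) in Ion Proton, so it was not called. Without the 13 libraries nearer to another subfield it was, at -0.74 (adjusted p = 4.12e-05, Ion Proton -0.79, adjusted p = 0.0098), and the calls for the other 2 vesicular carriers in that comparison stood.

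**Figure D1:**
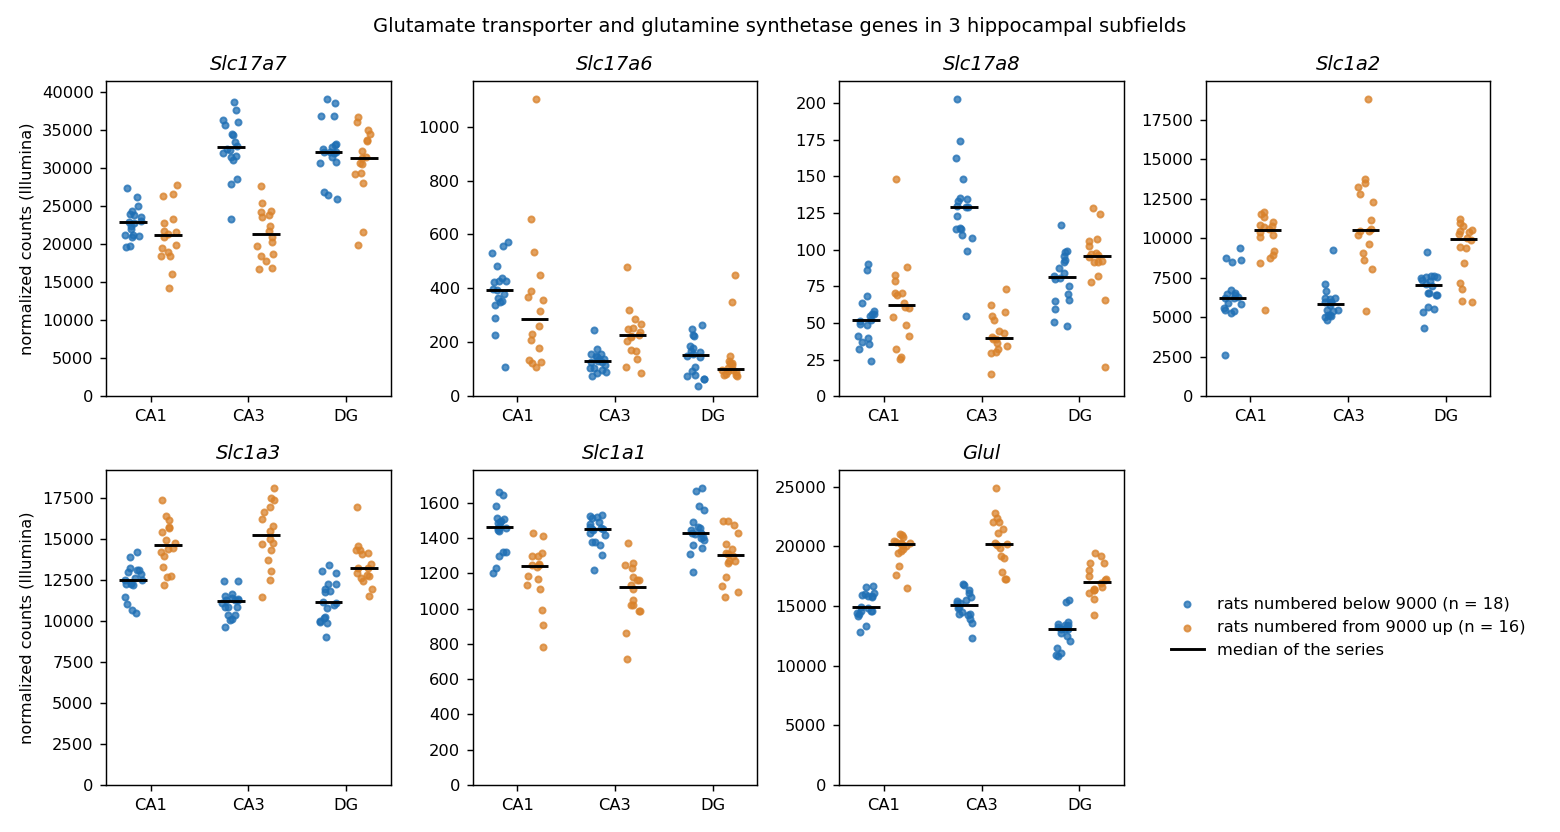
Normalized counts (Illumina, linear axis from 0) of each of the 7 genes in CA1, CA3 and DG, with 1 point per rat, split into rats numbered below 9000 and from 9000 up and with the median of each series as a line. Slc17a6 libraries reach their highest value of 1103 in CA1, and the CA3 points of Slc17a8 part by number series.

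Among the plasma membrane carriers, 0 of 3 were called for any pair of subfields by limma, edgeR or DESeq2, and unadjusted limma p-values under 0.05 in Illumina occurred for 0 in CA1 against CA3, 1 in CA1 against DG and 1 in CA3 against DG (43.6%, 60.1% and 60% of all genes). Slc1a2 is the gene of the carrier that clears most glutamate in the forebrain. It had means of 8129 ± 2376 for CA1, 8379.6 ± 3414 for CA3 and 7939.6 ± 1898 for DG (n = 34 each). The ranges overlapped widely, and the highest library of 18831 was from CA3. The CA1 and CA3 levels differed by -0.01 with a 95% confidence interval of -0.23 to 0.21. In the WT table the same gene was higher in CA1 than in CA3 by 0.17 (limma adjusted p = 0.000388) and lower in CA3 than in DG, at -0.15 (limma adjusted p = 0.000675).

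Slc1a3 encodes the carrier of radial and Bergmann glia as well as of astrocytes. Its means were 13456 ± 1656 for CA1, 13002 ± 2536 for CA3 and 12280.2 ± 1666 for DG. CA1 exceeded DG by 0.13 in Illumina (adjusted p = 0.0247) but not past the threshold in Ion Proton (0.05, adjusted p = 0.684). Slc1a1, which also carries cysteine into neurons, lay at 784, 1318 and 1662 for CA1, 715, 1333 and 1532 for CA3 and 1065, 1396 and 1687 for DG. Those groups overlapped almost throughout, and the difference between CA3 and DG was -0.13 (adjusted p = 0.036, Ion Proton -0.10, adjusted p = 0.239). Without the 13 libraries it was -0.10 (adjusted p = 0.105). It was -0.01 (adjusted p = 0.807) in rats below 9000 and -0.26 (adjusted p = 0.00375, Ion Proton -0.20, adjusted p = 0.0684) in rats from 9000 up.

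Glul was lower in DG, with a lowest, median and highest of 10774, 14773 and 19464, than in CA1 at 12782, 16517 and 21038 and in CA3 at 12276, 16783 and 24922. The groups overlapped, with CA1 exceeding DG in 30 and CA3 exceeding DG in 32 of 34 rats. The counts were 26 and 29 of 34 in Ion Proton and 23 and 30 of 34 in WT, where the differences were 0.12 and 0.16. The Illumina differences were 0.22 (SE 0.06, adjusted p = 0.00109, Ion Proton 0.21) for CA1 and 0.24 (SE 0.06, adjusted p = 0.000344, Ion Proton 0.23) for CA3. The CA3 to DG difference was 0.18 without the 13 libraries, 0.22 in rats below 9000 and 0.25 in rats from 9000 up, and was called in each case. CA1 and CA3 differed by -0.02 (95% confidence interval -0.14 to 0.10). Of 10 astrocyte markers, which hold none of the genes described here, 2 were called higher in CA1 and 4 higher in CA3 than in DG. All 8 oligodendrocyte markers were called higher in CA1 and in CA3 than in DG, and oligodendrocytes also make glutamine synthetase. The part of either cell type in the Glul difference was not tested.

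**Figure D2:**
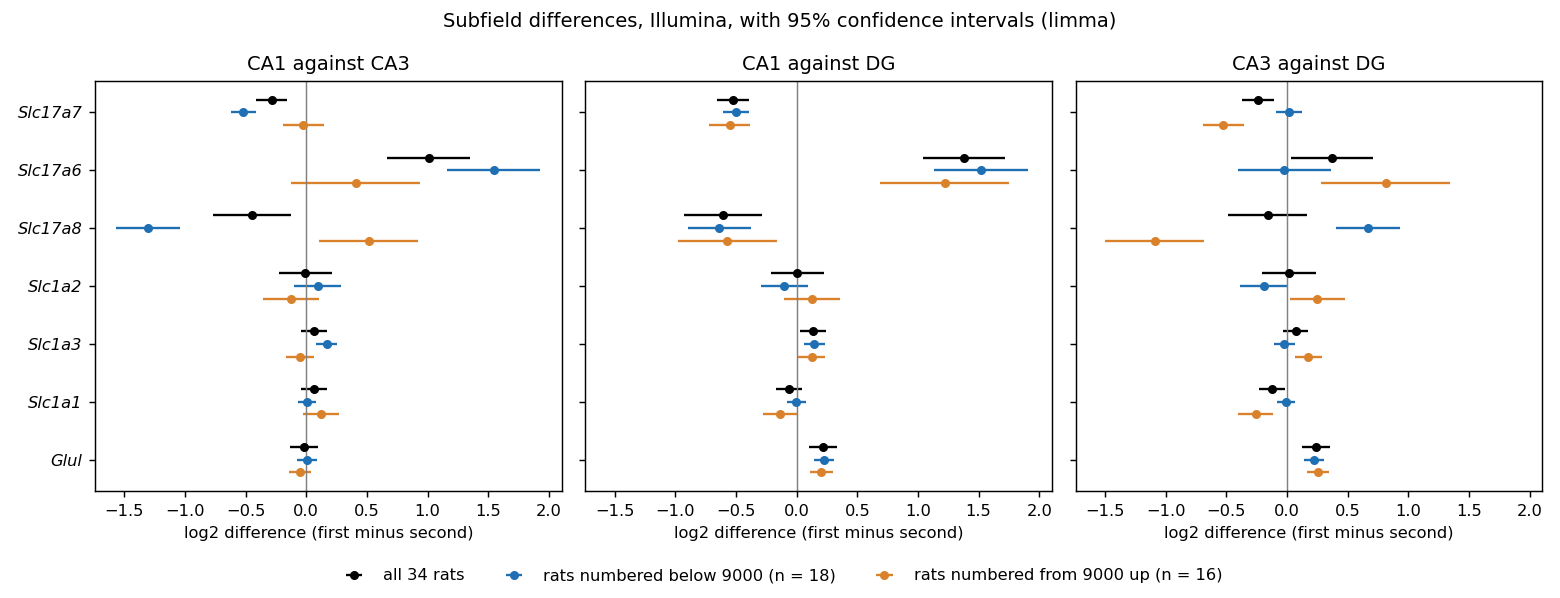
Log2 differences (Illumina, limma) of the 7 genes for each pair of subfields with 95% confidence intervals, for all 34 rats and for each number series fitted alone. Over all rats Slc17a6 sits at 1.01 and Slc17a7 at -0.29 for CA1 against CA3, and the interval of Slc17a8 lies on opposite sides of 0 in the 2 series.

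The order of the vesicular carriers in CA3 depended on the number series. In the 18 rats numbered below 9000, Slc17a8 in CA3 had a lowest, median and highest of 54.6, 129 and 203, and in the 16 rats numbered from 9000 up 15.0, 39.8 and 73.4. The 2 ranges overlapped only at their edges. Slc17a8 was lower in CA1 than in CA3 in 18 of 18 rats of the first series (-1.30, adjusted p = 8.97e-13, Ion Proton -1.68). In the other series it was higher in CA1 in 12 of 16 rats, at 0.52 (adjusted p = 0.0809, Ion Proton 0.79). For CA3 against DG it was higher in 17 of 18 rats of the first series (0.67) and lower in 15 of 16 of the second (-1.09).

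Slc17a7 and Slc17a6 in CA3 moved as well. Slc17a7 had a CA3 mean of 32761 ± 3702 in rats below 9000 and 21402 ± 3265 in rats from 9000 up. For Slc17a6 the CA3 means were 132 ± 39.8 and 228 ± 92.0. The CA1 to DG differences kept their direction in each series for all 4 genes called over all rats, at 1.52 and 1.22 for Slc17a6, -0.50 and -0.55 for Slc17a7, -0.64 and -0.57 for Slc17a8, and 0.23 and 0.20 for Glul. In rats below 9000 the Glul difference was not called, since Ion Proton gave 0.20 (adjusted p = 0.091), while the other 3 were called in each series.

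The difference between the series (from 9000 up minus below) was tested within each subfield, a comparison added after the data had been examined. In Illumina 4, 7 and 4 of the 7 genes passed an adjusted p of 0.05 in CA1, CA3 and DG, where 33.7%, 57.6% and 26.1% of all genes did. In Ion Proton 4, 7 and 5 passed, against 10.3%, 24.7% and 8.61% of all genes. In WT 1, 4 and 2 passed, against 14.1%, 44.1% and 34.8% of all genes. Slc17a8 differed by -1.62 in CA3 (SE 0.17, adjusted p = 2.04e-14), with -1.91 in Ion Proton and -1.43 in WT. The change in CA3 differed from that in CA1 by -1.82 (adjusted p = 5.28e-10) and from that in DG by -1.76 (adjusted p = 8.92e-10). For those interactions 40.2% and 48.5% of all genes passed the threshold. Without the 13 libraries nearer to another subfield the Slc17a8 interactions were -1.80 and -1.90. Slc17a6 in CA3 was higher in rats from 9000 up by 0.75 over all rats (adjusted p = 0.00376, Ion Proton 0.78, adjusted p = 0.0134). Without those libraries its difference was 0.55 (adjusted p = 0.0815, Ion Proton 0.50, adjusted p = 0.286), so 6 of the 7 genes passed in CA3 in each poly-A table, where 49.7% of all genes did in Illumina and 14.3% in Ion Proton.

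In the poly-A tables the astrocytic carriers and Glul were higher in rats from 9000 up in every subfield, and Slc1a1, of neurons, was lower. Slc1a2 differed by 0.66, 0.88 and 0.44 in CA1, CA3 and DG in Illumina and by 0.44, 0.64 and 0.51 in Ion Proton. The WT table gave -0.20, -0.07 and -0.05, which is the opposite direction. Glul differed by 0.39, 0.45 and 0.42 in Illumina and by 0.09, 0.06 and 0.13 in WT. Slc1a3 differed by 0.24, 0.46 and 0.26 in Illumina and -0.08, 0.09 and 0.18 in WT, the CA1 value being of opposite sign. The WT table thus did not share the size of the glial differences, nor the direction for Slc1a2 in any subfield and for Slc1a3 in CA1. Slc1a1 differed by -0.30, -0.41 and -0.16 in Illumina and -0.13, -0.18 and -0.03 in WT. Of 10 astrocyte markers, 7, 9 and 8 passed the threshold as higher in CA1, CA3 and DG, and 1 as lower in CA3, with median differences of 0.27, 0.35 and 0.23. In Ion Proton 4, 6 and 2 passed as higher and 1 as lower in CA3, with medians of 0.28, 0.31 and 0.09. In WT 0, 3 and 2 passed as higher and 1, 2 and 2 as lower, with medians of 0.01, -0.01 and 0.06. Of the 8 oligodendrocyte markers 7 and 8 passed as higher in CA1 and DG (Illumina medians 0.56 and 0.96), and of the 8 interneuron markers 6 passed as lower in CA1 (median -0.42). The list with the largest median in CA1 was that of the choroid plexus, with 5 of 5 markers passing as higher (median 2.49, Ion Proton 4 of 5 and 2.98, WT 4 of 5 and 2.19), and in DG 2 of 5 passed (median 1.21). Of the 6 microglia markers 3 passed as higher in CA1 and 3 in DG, and of the 5 thalamus and habenula markers 2 and 3 did. In CA3 the 5 CA3 markers had a median of -1.41, the 4 CA1 markers 1.20, the 4 DG markers 1.23 and the 8 oligodendrocyte markers -0.73. Without the 13 libraries these medians were -1.41, 0.97, 0.71 and -0.74. Of the 5 markers of the thalamus and habenula 4 passed as higher in CA3 (median 0.61, and 0.50 without the 13 libraries), and 2 passed in Ion Proton (0.49) and 1 in WT (0.21). Of the 3 subiculum markers 2 passed as higher and 1 as lower there, and all 5 endothelium markers passed as higher in Illumina (median 0.53) but 0 in Ion Proton (0.35) or WT (0.08). The part of tissue makeup in the changes of the 7 genes was not tested.

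**Figure D3:**
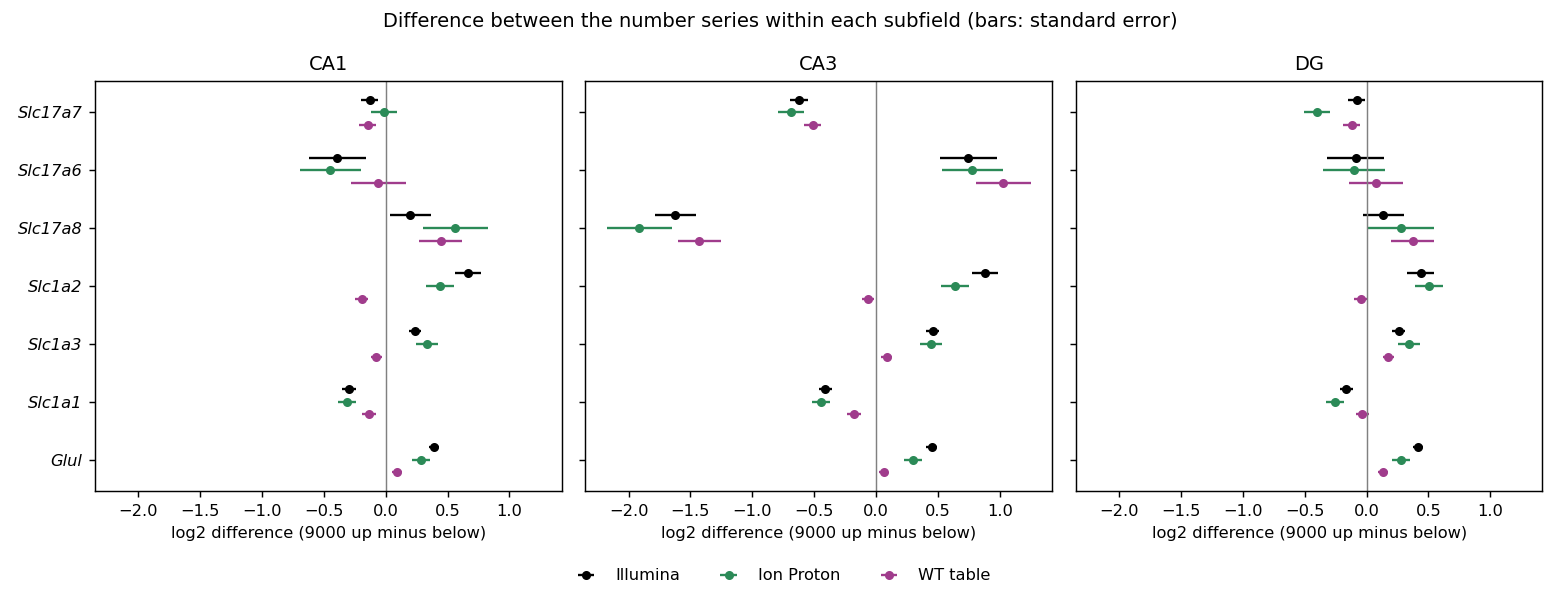
Log2 difference between rats numbered from 9000 up and below 9000 within CA1, CA3 and DG for the 7 genes (limma, points with standard errors) in the Illumina, Ion Proton and WT tables. Slc17a8 in CA3 lies furthest from 0, between -1.91 and -1.43, and Slc1a2 lies above 0 in the poly-A tables and below 0 in WT.

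Age was tested within each subfield as the 24 aged against the 10 young rats, asking for an unadjusted p under 0.01 in Illumina and a one-sided p under 0.05 in the same direction in Ion Proton. None of the 7 genes passed in CA1, CA3 or DG, where 0.851%, 0.402% and 1.09% of all genes passed. By limma, edgeR and DESeq2 alike the count was 0, and 0 of the genes had an unadjusted limma p under 0.05 in Illumina in any subfield, where 6.15%, 3.31% and 5.2% of all genes did. Differences lay between -0.26 and 0.16 in CA1, between -0.32 and 0.13 in CA3 and between -0.17 and 0.03 in DG. For Slc1a2 in CA1, young rats had 5243, 7479 and 11564 and aged rats 2637, 8662 and 11677, with a difference of 0.01 (95% confidence interval -0.34 to 0.37). For Glul in CA1 the values were 13351, 17141 and 20766 in young and 12782, 16278 and 21038 in aged rats, a difference of 0.02 (95% confidence interval -0.15 to 0.19). The young and aged ranges overlapped for both genes. Slc17a7 in DG differed between aged and young rats by 0.00 (95% confidence interval -0.16 to 0.16).

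Cognition was tested as AI against AU rats under the same rule. By limma 0 of the 7 genes passed in any subfield, against 0.635% of all genes in CA1, 0.0216% in CA3 and 0.124% in DG. The unadjusted p was under 0.05 in Illumina for 2 genes in CA1 and for 0 in CA3 and DG, against 5.71%, 1.4% and 3.85% of all genes. With edgeR and DESeq2 0 passed the rule in CA3 and DG. The 2 genes were Slc17a8 and Slc17a6, in opposite directions, and each passed the rule when 1 particular rat was left out. The comparisons of AI and of AU with young rats share the young rats, and their values are given side by side. Each also shares its aged rats with the comparison of AI with AU rats, so a repeated direction is not separate support.

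Slc17a8 in CA1 had a lowest, median and highest of 41.3, 60.1 and 88.5 in young, 39.4, 64.6 and 148 in AU and 23.9, 36.4 and 70.4 in AI rats. AI rats were low, with 11 of 12 below the AU median and 7 below every AU rat, although the groups overlapped. The difference was -0.77 (SE 0.19, p = 0.000494, adjusted p = 0.468 by limma), with -0.77 in WT (limma p = 0.00212). Ion Proton gave -0.21 (limma p = 0.671), from means of 42.4 ± 24.0 in AU and 29.0 ± 11.3 in AI rats (n = 12 each). In that table the CA1 library of AU rat R2232 had 0 Slc17a8 reads of 5.35 M, which allows up to 5.75 normalized counts, while it had 45 reads in Illumina and 33 in WT. Without R2232 Ion Proton gave -0.66 (limma p = 0.016) and the gene passed the rule. It also passed with DESeq2 and in rats from 9000 up alone (5 AI and 6 AU rats). It did not pass with edgeR or in rats below 9000 alone (7 AI and 6 AU rats). Slc17a8 was among the CA1 genes that the study itself had picked from these rats for cognition, so its direction here is not independent evidence. The study, with DESeq2, listed it as differing in both Illumina and Ion Proton, whereas by limma here it did not pass in Ion Proton. Of the 5 CA3 markers tested, 4 were lower in CA1 of AI than of AU rats in Illumina, with a median of -0.28. Among them were Bok at -0.37 (limma p = 0.0209) and Npy2r at -0.49 (limma p = 0.0838), while Nnat was at 0.27. In Ion Proton Bok was at -0.17 (limma p = 0.423), Npy2r at -0.14 (limma p = 0.806), Grik4 at -0.35 (limma p = 0.095), Prss35 at 0.20 and Nnat at 0.25. The summed level of the 6 listed CA3 markers was 3041, 4489 and 6175 in AU and 2363, 4505 and 7313 in AI rats. The 8 interneuron markers had a median of 0.07 and summed to 9617, 12016 and 14404 in AU and 7799.6, 11729.9 and 14765 in AI rats. Lower in AI rats were Cnr1, the cannabinoid receptor of a class of interneurons, at -0.23 (limma p = 0.0686), Gad2 at -0.09 and Slc32a1 at -0.06. Higher were Vip at 0.30 (limma p = 0.311), Pvalb at 0.12, Htr3a at 0.08, Gad1 at 0.07 and Sst at 0.07. No marker of either list passed the rule, and their part in the Slc17a8 difference was not tested.

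AI rats had less Slc17a8 in CA1 than young rats, in a comparison that shared its AI libraries with that of AI against AU rats. The difference was -0.64 (SE 0.18, p = 0.00149, adjusted p = 0.24 by limma) in Illumina, -0.58 (limma p = 0.0234) in Ion Proton and -0.70 (limma p = 0.00292) in WT. It was the 1 of 7 genes that passed the rule there, where 1.23% of all genes did, and it passed with each rat left out in turn. AI rats lay below the young median in 11 of 12 cases and below every young rat in 8. Without the 7 deeply sequenced rats (over 25 M reads, 3 of them young) the difference was -0.59 (limma p = 0.0151) and did not pass. Within the series it was -0.67 (limma p = 0.00407) below 9000 and -0.60 (limma p = 0.0782) from 9000 up. AU against young rats gave 0.13 (95% confidence interval -0.24 to 0.49). In CA3 and DG, 0 of 7 genes passed for AI against young (0.28% and 0.968% of all genes), and for AU against young 0 of 7 passed in CA1, CA3 and DG (0.621%, 0.394% and 0.635%). Neither edgeR nor DESeq2 called a gene in those 5 comparisons. An unadjusted limma p under 0.05 in Illumina was found for 1 of 7 in CA1 of AI against young rats (7.96% of all genes), and for 0 in CA3 and DG (2.46% and 5.3%) and in AU against young rats (4.87%, 3.3% and 4.2%).

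Slc17a6 in CA1 was 107, 352 and 451 in young, 109, 315 and 534 in AU and 126, 456 and 1103 in AI rats. The highest libraries were from AI rats, of which 10 of 12 lay above the AU median and 4 above every AU rat. The difference between AI and AU was 0.70 (SE 0.29, p = 0.0239, adjusted p = 0.82 by limma), with 0.68 in Ion Proton (limma p = 0.0328) and 0.56 in WT (limma p = 0.0379). Without AI rat R9781, whose 126 was the lowest of its group, it was 0.85 (limma p = 0.00308) and passed the rule. Markers of the thalamus and habenula, where VGLUT2 is the main carrier, were higher in AI rats for 5 of 5 tested genes, with a median of 0.24. Their summed level was 378, 487 and 1082 (lowest, median and highest) in AU and 430.4, 543 and 3108 in AI rats. Prkcd differed by 0.77 (limma p = 0.0303), the habenular Pou4f1 had 3 or fewer reads in every library, and the summed subiculum markers were 1319, 2266 and 2754 in AU and 1795, 2376 and 3236 in AI rats. The DG markers C1ql2, Plk5, Dsp and Prox1 were higher in AI rats too, at 0.60, 0.47, 0.35 and 0.20. So were the endothelium markers Pecam1, Cldn5, Flt1, Tek and Cdh5, at 0.21, 0.20, 0.16, 0.16 and 0.15. No marker of these lists passed the rule, and their part in the Slc17a6 difference was not tested.

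**Figure D4:**
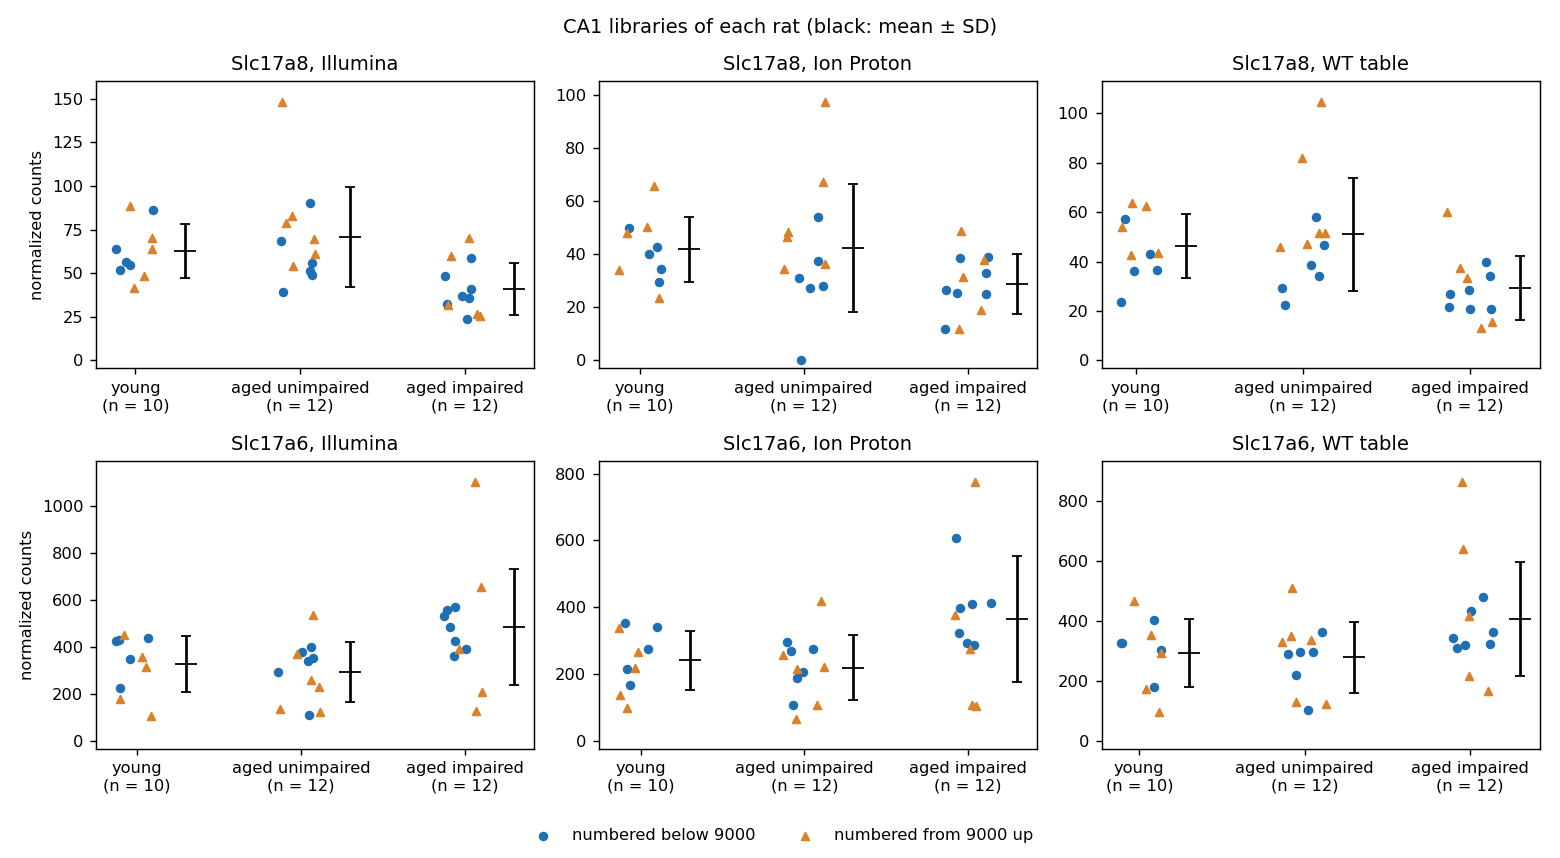
Normalized counts (linear axes) of vesicular carrier genes in CA1 by group, 1 point per rat with marker shape for the number series and black mean and SD, in the Illumina, Ion Proton and WT tables. In Illumina the AI rats have a Slc17a8 mean of 41.0 ± 15.1 against 70.7 ± 28.6 in AU rats, and the Ion Proton point at 0 is AU rat R2232.

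Outside CA1 no vesicular carrier passed the rule for cognition. Slc17a8 differed between AI and AU rats by 0.07 in CA3 (95% confidence interval -0.70 to 0.85) and by 0.17 in DG (-0.26 to 0.61). With the number series as a covariate the CA3 difference was -0.06 (-0.49 to 0.36, Ion Proton 0.39) and the CA1 difference -0.75 (-1.14 to -0.36, Ion Proton -0.15), and 0 of the 7 genes passed the rule in either subfield. The test of whether its cognition effect differed between subfields gave -0.84 for CA1 minus CA3 (limma p = 0.0297, adjusted p = 0.907) and -0.94 for CA1 minus DG (limma p = 0.0155, adjusted p = 0.999). In Ion Proton the same tests had p-values of 0.168 and 0.345 by limma. A difference between subfields was thus not shown. The astrocytic genes did not pass in CA1, with -0.13 (-0.52 to 0.27) for Slc1a2, -0.03 (-0.18 to 0.12) for Slc1a3 and -0.02 (-0.21 to 0.16) for Glul, where brackets hold 95% confidence intervals.

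**Figure D5:**
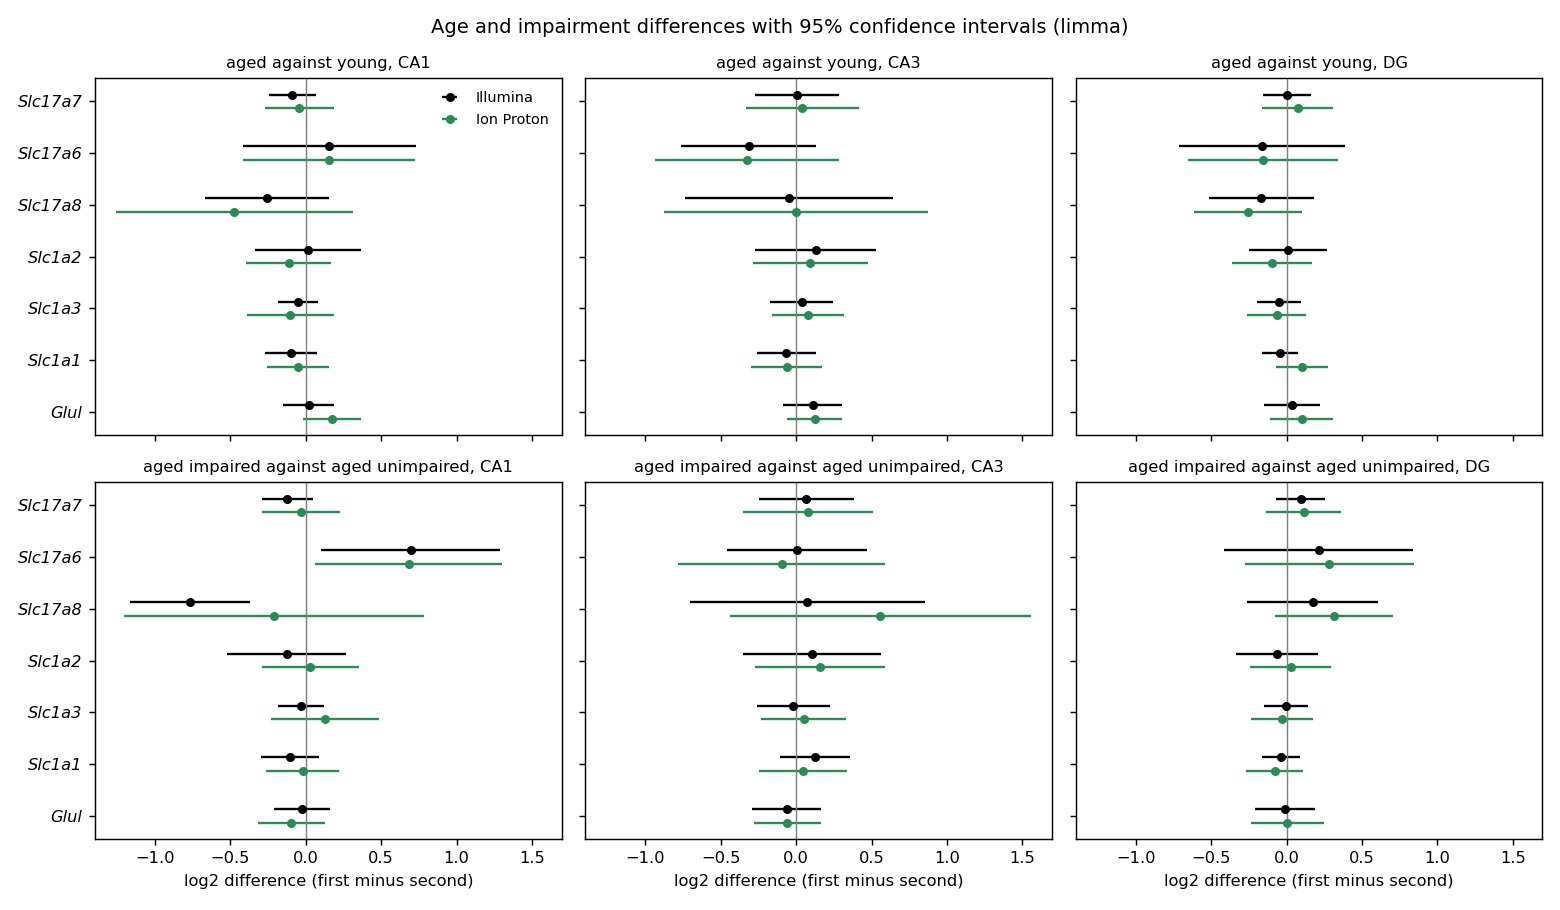
Log2 differences of the 7 genes for aged against young rats and for aged-impaired against aged-unimpaired rats in CA1, CA3 and DG, with 95% confidence intervals (limma), in Illumina and Ion Proton. Age differences in Illumina stay between -0.32 and 0.16, and the CA1 cognition panel has Slc17a8 at -0.77 and Slc17a6 at 0.70.

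Other genes of the cycle were taken from a list of 27, of which 25 were tested. For CA3 against DG, 11 were called higher in CA3 and 1 lower (14.1% and 14.3% of all genes), with a median difference of 0.17 against 0.01 over all genes. The largest were Slc25a13 (an aspartate-glutamate exchanger of mitochondria) at 0.70, Slc1a5 (a neutral amino acid and glutamine carrier) at 0.69 and Slc25a18 (a mitochondrial glutamate carrier) at 0.48. Glutamine transporters accounted for 5 of these calls, out of 6 tested. Without the 13 libraries 10 were higher and 2 lower (15.2% and 14.9% of all genes). In rats below 9000 the counts were 7 and 0 (12.4% and 11% of all genes), and in rats from 9000 up 10 and 3 (10.6% and 11.4%). For CA1 against DG, 8 were higher and 3 lower (13.4% and 13.5% of all genes) with a median of 0.14, led by Slc1a6 (a glutamate carrier of Purkinje cells) at 0.51, Slc25a13 at 0.49 and Gls2 (a glutaminase) at 0.43. The counts were 8 and 3 without the 13 libraries (14% and 14.6% of all genes), 4 and 1 in rats below 9000 (7.98% and 7.75%) and 6 and 3 in rats from 9000 up (10.5% and 10.4%). CA1 and CA3 differed in 6 genes, 2 higher and 4 lower in CA1 (7.26% and 7.09% of all genes), with a median of -0.07. Of these Slc25a18 had -0.33, Slc1a6 0.33 and Got2 (mitochondrial aspartate aminotransferase) -0.23. The counts were 2 and 4 without the 13 libraries (9.31% and 10.2% of all genes), 3 and 6 in rats below 9000 (9.81% and 12%) and 0 and 1 in rats from 9000 up (2.32% and 1.64%).

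For age and cognition, 2 genes of that list passed the rule. Slc1a5 was higher in CA1 of AI than of young rats by 0.55 (SE 0.17, p = 0.00303, adjusted p = 0.31 by limma, Ion Proton 0.48), the 1 of 25 that passed there against 1.23% of all genes. Pc, the pyruvate carboxylase through which astrocytes make new glutamate, was higher in DG of aged than of young rats by 0.09 (limma p = 0.00764, Ion Proton 0.23) and of AI than of young rats by 0.10, in each the 1 of 25 that passed, against 1.09% and 0.968% of all genes. For AI against AU rats 0 of 25 passed in any subfield by limma, and 1 had an unadjusted p under 0.05 in Illumina, Slc25a18 in CA1, where 5.71% of all genes did.

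The genes whose log2 levels followed each of the 7 most closely were ranked by Pearson's r over all Illumina libraries among 14179 genes. Libraries of 1 rat share their animal, and the libraries share subfield, number series and depth, so the correlations are a description. For Slc1a2 the closest were Prex2 (0.949 and 0.939), Paqr8 (0.930 and 0.441), Slc4a4 (0.919 and 0.730), each with Pearson's r in Illumina and Ion Proton. For Slc1a3 the closest were Gja1 (0.925 and 0.911), RGD1309821 (0.913 and 0.548), Ppap2b (0.910 and 0.863). The list for Glul was Zcchc24 (0.914 and 0.512), Mertk (0.899 and 0.492), Chst2 (0.890 and 0.758), and for Slc1a1 it was Gria1 (0.904 and 0.759), Slitrk3 (0.865 and 0.721), Fbxo10 (0.859 and 0.570). Slc17a7 was followed by Ly6e (0.949 and 0.775), LOC606294 (0.941 and 0.363), Acsl4 (0.936 and 0.190), the last of which had little relation to it in Ion Proton. Slc17a8 had Rerg (0.926 and 0.694), Rem2 (0.912 and 0.594), Smpd3 (0.900 and 0.629), and Slc17a6 had Cntn6 (0.868 and 0.637), Vwc2l (0.826 and 0.720), Prph (0.810 and 0.635).

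Among the 7 genes themselves, 126 relations were computed, 21 pairs in 3 subfields and 2 number series, computed within each series because the 7 genes differed between the series in CA3. Only in 11 did both Pearson's r and Spearman's rho pass a Benjamini-Hochberg adjusted permutation p of 0.05, and 2 pairs did so in both series, each in DG. Slc17a7 and Glul ran against each other. In rats below 9000 (n = 18) they had Pearson's r -0.81 (permutation p = 7e-05, adjusted p = 0.0029) and Spearman's rho -0.70 (permutation p = 0.0014, adjusted p = 0.025). In rats from 9000 up (n = 16) they had Pearson's r -0.74 (permutation p = 0.00063, adjusted p = 0.0076) and Spearman's rho -0.74 (permutation p = 0.0016, adjusted p = 0.025). Leaving out the 2 rats farthest from the median gave r of -0.71 and -0.60, whereas Ion Proton gave 0.69 and -0.46, so the relation did not hold across platforms. Slc17a7 and Slc17a8 rose together, with Pearson's r 0.73 (permutation p = 0.00072, adjusted p = 0.0076) and Spearman's rho 0.72 (permutation p = 0.001, adjusted p = 0.025) below 9000. From 9000 up they had Pearson's r 0.80 (permutation p = 0.00071, adjusted p = 0.0076) and Spearman's rho 0.84 (permutation p = 9e-05, adjusted p = 0.0055). Without the 2 farthest rats r was 0.78 and 0.75, in Ion Proton -0.01 and -0.03, and in WT 0.74 and 0.45. Astrocytic pairs passed in the first series alone, among them Slc1a2 and Glul in DG (r 0.88, and 0.40 in the second) and Slc1a2 and Slc1a3 in DG (r 0.80 and 0.46), and a difference between the series was not tested. In the first series the same pairs had r of 0.03 and 0.61 in Ion Proton and of -0.04 and 0.12 in WT, so neither held across all tables. Slc1a3 and Glul in DG, at 0.78 in Illumina, had -0.37 in Ion Proton and 0.44 in WT. Slc1a2 and Slc1a3 in CA1 of the first series, with Pearson's r 0.66 (permutation p = 0.0023, adjusted p = 0.018) and Spearman's rho 0.68 (permutation p = 0.0028, adjusted p = 0.039), had r of 0.75 in Ion Proton and 0.46 in WT. In the second series they had 0.38, 0.91 and 0.66, and leaving out the 2 rats farthest from the median gave 0.67 and 0.15 in Illumina.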

How the data were processed

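RNA from CA1, CA3 and DG of 34 rats was measured in 3 deposited tables, each with 1 library per rat and subfield. In each, the unit was a normalized signal, that is gene counts that the authors had divided by a DESeq2 (version 1.16.1 per the labels) size factor of the library, on each table separately, so tests were made within a table. For the Illumina table, reads were trimmed with cutadapt 1.8.3, aligned to rn5 with STAR 2.5 and counted with featureCounts 1.4.4. For Ion Proton, TopHat2 with Bowtie2 placed reads on rn5, and featureCounts made the counts. The library type and aligner of the WT table are not given in the sources used here. Labels and methods name different Illumina kits, so whether strand was used in counting is not known, and reads of overlapping or antisense genes cannot be told apart. The Ion Proton libraries came from RNA of the same rats, so a repeat there bears on technical error.

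Whole reads could be recovered for 100.0% of the values above 0 (tolerance 0.01 reads), and their totals are the depths given. Every column matched a single sample, with 0 left over. For genes whose mean over the libraries of a fit reached 10, tests used limma 3.58.1 (R 4.3.3, variance trend) on log2(value + 1), which understates changes of genes with low values, with Benjamini-Hochberg adjustment over all genes. Subfields were compared over all libraries, and age and cognition within subfields. The study set the same thresholds, with DESeq2 as its test. Replicates were separate rats. The rat number pairs the libraries of 1 rat across subfields, since they come from the same animal, and was used as a block in an alternative. The scripts were tested on simulated data.

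Alternatives changed the pseudocount (0.1), the filter (none), the normalization (quantile), the test (edgeR 4.0.16 and DESeq2 1.42.0 on recovered reads), the Illumina table (WT in its place) and the rats or libraries that entered. Fits within a series for subfields, and the comparison of the series, were added after seeing the data. The 7 genes and all lists were chosen with earlier results of these data known. Named were the 7 genes, for each the 3 genes most correlated with it, and of the list of 27 the 3 with the largest called difference per pair of subfields and any that passed for age or cognition. Symbols came from the tables, and promoters from RefSeq.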

Additional observations from a re-analysis of the deposited data

Results flagged for a closer look

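In 21 groups of 10 young rats (7 genes in 3 subfields), a library was set apart where its gap to the nearest other, divided by the range, exceeded Dixon's critical value at 95%. Slc17a6 met this in CA3 of young rat R9879, at 480 normalized counts against 104 to 266 in the others (381 reads), and in DG of young rat R9881, at 349 against 75.2 to 179 (285 reads). Chance alone sets apart about 1 in 20 such groups. Both rats were numbered from 9000 up, and the CA3 library of R9879 was one of the 13 whose markers lay nearer to another subfield, here CA1, in all 3 tables.

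The difference between the number series (from 9000 up minus below) differed between subfields for 3 genes by limma in both poly-A tables. These interactions passed for 40.2% of all genes in Illumina and 15.1% in Ion Proton between CA3 and CA1, and for 48.5% and 17.3% between CA3 and DG. Between CA3 and CA1 it differed by 1.14 for Slc17a6 (adjusted p = 0.00299, Ion Proton 1.23), by -0.49 for Slc17a7 (adjusted p = 2.3e-05, Ion Proton -0.67) and by -1.82 for Slc17a8 (adjusted p = 5.28e-10, Ion Proton -2.48). Between CA3 and DG it differed by -1.76 for Slc17a8 (adjusted p = 8.92e-10, Ion Proton -2.19). Without the 13 libraries the Slc17a6 value was 0.88 (adjusted p = 0.0378, Ion Proton 0.90, adjusted p = 0.133) and no longer passed in both tables, the Slc17a7 value was -0.51 (adjusted p = 2.32e-05, Ion Proton -0.68, adjusted p = 0.00247) and the Slc17a8 values were -1.80 against CA1 and -1.90 against DG. The CA3 libraries of the 2 series also differed in CA1, CA3, DG and oligodendrocyte markers, whose part in these values was not tested.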

How the results depend on the processing

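Most counts of called genes kept their value within 1.5 times under the alternatives (506 of 516 values). For CA1 against CA3 the 2 calls became 0 in rats numbered from 9000 up alone. For CA3 against DG the 1 call became 2 with quantile normalization, 2 in rats below 9000 alone and 4 in rats from 9000 up alone. For AI against AU rats in CA1 the count of 0 became 1 in rats from 9000 up alone and 1 with DESeq2, and lay between 0 and 1 when each rat was left out (1 without rat R2232 and 1 without rat R9781). For AI against young rats in CA1 the 1 call became 0 without the deeply sequenced rats and 0 in rats from 9000 up alone, and stayed at 1 with each rat left out. Directions that turned, with an unadjusted p under 0.05 before or after, were for CA3 against DG in rats below 9000 alone Slc17a6 at -0.0229, Slc17a7 at 0.0168, Slc17a8 at 0.67 and Slc1a2 at -0.19, for CA1 against CA3 in rats from 9000 up alone Slc17a8 at 0.52, with the WT table Slc1a2 at 0.17 for CA1 against CA3 and -0.15 for CA3 against DG, and with the number series as covariate and the 13 libraries left out Slc1a3 at 0.11 for AI against AU rats in CA3. The cause was not tested.

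With the replicate block on the rat, CA1 and CA3 still differed in 2 of the 7 genes, CA1 and DG in 4, and CA3 and DG in 1, the same genes as without it. Of the other cycle genes, 12 in place of 11 were called higher in CA3 than in DG with the block, and the counts of the list in the other pairs of subfields were as without it. No paired analysis was possible within subfields because young, AU and AI rats share no rat number.

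Over all genes, 1996 were called for CA1 against CA3, but 3023 and 551 in rats below and from 9000 up alone, and 3739 for CA1 against DG, with 0.582 of that number in rats below 9000 alone. Over the alternatives the count for AI against AU rats was 32 to 174 in CA1 (main 88), 0 to 15 in CA3 (3) and 5 to 111 in DG (17), for AI against young rats 29 to 251 in CA1 (171), 30 to 114 in CA3 (39) and 87 to 234 in DG (133), for AU against young rats 36 to 161 in CA1 (86), 0.473 to 1.85 times the main count in CA3 (55) and 44 to 130 in DG (87), and for aged against young rats 75 to 187 in CA1 (118), 35 to 157 in CA3 (56) and 88 to 210 in DG (150).

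Depth limits the values of Slc17a8, with a median of 53.5 reads per CA1 library in Illumina.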
